A study of Mus musculus with 68 samples.

Results

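A set of 8 genes of the Notch pathway was followed in benign skin tumors of mice: the receptors Notch1, Notch2 and Notch3, the ligands Jag1, Jag2 and Dll1, and the target genes Hes1 and Hey1. All probesets (sets of short probes read as 1 value) of these symbols were taken, which gave 14 of the 45101 probesets on the array. The samples were 68 papillomas from 37 FVBBX mice, a backcross made by mating [SPRET/Ei X FVB/N] animals to FVB/N, so every mouse carried its own mix of both parental genomes. All mice were 8 to 12 weeks old when they received a single dose of the carcinogen DMBA on the back skin, followed from 1 week later by the tumor promoter TPA for 20 weeks. The susceptible class held 12 mice with 9 to 35 papillomas at 20 weeks, the resistant class 6 mice with 0 or 1, and the remaining 19 mice, with 2 to 7, are called intermediate. Of the 37 mice, 31 gave 2 papillomas and 6 gave 1. The coat was agouti, the sign in this cross of a SPRET/Ei allele of the pigment gene Tyr, in 4 susceptible, 5 resistant and 8 intermediate mice. Values were log2 expression levels, and those of papillomas from 1 mouse were averaged, so that the mouse was the replicate. No normal skin was analysed here, and a whole papilloma was used for each array, so fewer cells of a type and less RNA per cell cannot be told apart.

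Notch receptors are membrane proteins that are cut after they bind a ligand on a neighboring cell, first by ADAM proteases and then by the gamma-secretase complex. The freed intracellular part enters the nucleus, joins the DNA-binding protein Rbpj and switches on targets such as the transcriptional repressors of the Hes and Hey families. In the epidermis the pathway is known for its part in moving keratinocytes out of the basal layer, which makes the keratins Krt5 and Krt14, into the spinous layer, which makes Krt1 and Krt10. In blood vessels the pathway directs the growth and the arterial identity of endothelial cells, where Hey1 is one of its targets.

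The array medians lay between 5.19 and 5.29, near-equal by the authors' normalization across arrays. The sex label of 6 mice (8 arrays) went against sex-linked transcripts on the array, and the main counts of members were also computed without them. The second papilloma of mouse 14, an intermediate mouse, was the lowest of the 68 arrays for 8 of the 13 member probesets that were measurable. The log2 level of the 3′ minus the 5′ Actb control probeset, a sign of RNA quality, was 0.609 and 0.495 in the papillomas of that mouse, inside the range of -0.269 to 2.13 over all arrays. The basal keratins Krt5 and Krt14 were high in every mouse, with mouse means of 13.38 to 14.50. The spinous keratins Krt1 and Krt10 varied more, with mouse means of 9.36 to 14.38 and a median of 13.66. They were lowest in the resistant mice 32, at 9.36, and 34, at 11.27, and Krt1 was above the array median in 67 of 68 arrays.

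All 8 genes were detected. Of the 14 probesets, 13 lay above their own array's median in all 68 arrays and entered the tests. The exception was 1451889_at for Notch2, which was above the median in 0 arrays and had a mean of 4.52. Levels are given for 1 probeset per gene, the one of highest mean, and are not compared between genes, because probes differ in how strongly they bind.

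Among the receptors, Notch1 (1418634_at) had a mean of 9.65 ± 0.32 (SD, n = 37 mice) on the log2 scale and ran from 8.70 in mouse 31 to 10.44 in mouse 23. Notch2 (1455556_at) had a mean of 9.30 ± 0.27 and ran from 8.59 in mouse 31 to 9.97 in mouse 2. Notch3 (1421965_s_at) had a mean of 8.38 ± 0.31 and ran from 7.40 in mouse 14 to 9.09 in mouse 2. The lowest and highest mice thus differed 3.35-fold for Notch1, 2.61-fold for Notch2 and 3.24-fold for Notch3.

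Among the ligands, Jag1 (1434070_at) had a mean of 10.18 ± 0.28, Jag2 (1426431_at) of 8.08 ± 0.23 and Dll1 (1419204_at) of 7.18 ± 0.20 (SD, n = 37). Dll1 varied least of the 8 genes on these probesets, with 1.73-fold between mouse 14 at 6.77 and mouse 34 at 7.56. The widest spread of all 13 probesets was on another Jag1 probeset, 1421106_at, with 6.14-fold between mouse 36 at 5.98 and mouse 15 at 8.60. Of the targets, Hes1 (1418102_at) had a mean of 9.08 ± 0.25 and ran from 8.41 to 9.53, and Hey1 (1415999_at) had a mean of 6.19 ± 0.31 and ran from 5.65 to 7.13.

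Probesets of 1 gene followed each other over the mice to different degrees, given here as a description. Pearson's r was 0.813 for the Notch3 pair, 0.737 for the Jag2 pair and 0.680 for the Notch1 pair. The Jag1 probesets 1421106_at and 1421105_at went together with r = 0.924, while 1434070_at went with them at 0.658 and 0.515. Jag1 is therefore described by all of its probesets.

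**Figure D1:**
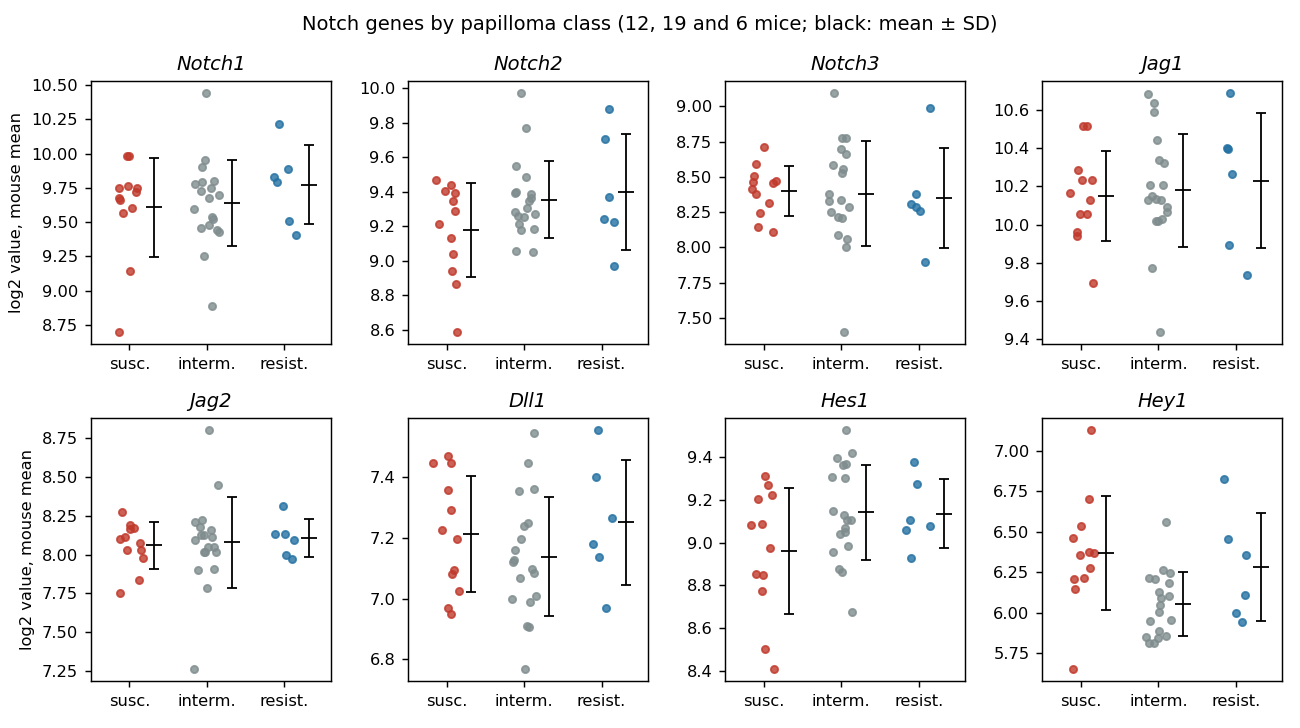
Mouse means of the 8 Notch genes on the log2 scale (y axis), 1 panel per gene with the probeset of highest mean, by papilloma class on the x axis (12 susceptible, 19 intermediate and 6 resistant mice). Points are mice, and the line and bar give the class mean and SD. In every panel the susceptible and resistant mice overlap, and Hey1 has its highest mouse, 7.13, in the susceptible class.

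The RefSeq promoter table (GRCm38.p6, 250 bases before to 50 after a listed start) held 7 promoters for 6 of the genes. Notch1 lies at chr2:26457902-26503822, Notch2 at chr3:98013538-98150367, Notch3 at chr17:32120820-32166896, Jag1 at chr2:137081451-137116520, Jag2 at chr12:112907803-112929812, Dll1 at chr17:15367354-15376932, Hes1 at chr16:30065357-30067796 and Hey1 at chr3:8663359-8667038. Each promoter was searched on both strands for TGGGAA, or TTCCCA on the other strand, the core of the sites that Rbpj binds, and for CACGCG, or CGCGTG on the other strand, a site bound by Hes and Hey repressors. TGGGAA was found in 0 of the 7 promoters and in 25.6% of the 32851 promoters of the table. CACGCG was found in 4 of the 7, against 9.27% of all promoters: those of Notch2, Jag1 and Jag2 and the second start of Dll1. Beginning at the bases counted from each start, the matches lay at -42 in Notch2, at -249 and -171 in Jag1, at 18 in Jag2 and at -68 in Dll1. The 7 promoters had 55.7% to 86% of bases G or C. Neither share was computed over promoters of like base composition, so the contrast cannot be read as particular to these genes. A match describes letters in the sequence and does not show binding. A receptor and a ligand that passed the test against the basal keratins (below) are shown, 5′ to 3′ on the gene's strand with CACGCG or CGCGTG in capitals. The receptor, Notch2, did not pass without mice 31 and 36. The Notch2 promoter is chr3:98013288-98013587 on the plus strand, and that of Jag1, the promoter with a match on each strand, is chr2:137116471-137116770 on the minus strand.
Notch2: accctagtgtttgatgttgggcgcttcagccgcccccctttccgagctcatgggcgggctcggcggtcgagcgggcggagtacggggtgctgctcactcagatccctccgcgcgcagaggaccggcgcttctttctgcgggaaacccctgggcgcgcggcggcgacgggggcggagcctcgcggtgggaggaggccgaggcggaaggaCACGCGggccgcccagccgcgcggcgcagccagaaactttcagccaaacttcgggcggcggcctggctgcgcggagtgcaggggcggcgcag
Jag1: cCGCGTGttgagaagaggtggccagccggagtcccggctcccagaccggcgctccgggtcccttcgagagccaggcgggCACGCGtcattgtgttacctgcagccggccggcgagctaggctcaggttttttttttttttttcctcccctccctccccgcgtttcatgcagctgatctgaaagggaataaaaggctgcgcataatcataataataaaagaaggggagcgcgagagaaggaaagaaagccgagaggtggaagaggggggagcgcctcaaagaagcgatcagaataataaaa

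Class was compared first, to ask whether tumors from mice that grew many papillomas differ in the Notch genes from tumors of mice that grew few. No member passed the test between susceptible and resistant mice: 0 of 13 probesets had an adjusted p under 0.05 in limma (Benjamini-Hochberg over all 21561 tested probesets), and 0 had an unadjusted p under 0.05. Over all tested probesets 0.0510% passed. The differences, susceptible minus resistant, ran from -0.22 for Notch2 to 0.09 for Hey1 on the log2 scale, with exact permutation p-values over the 18564 splits of the mice of 0.154 and 0.621 (two-sided).

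For Notch2 the resistant mice 7, 10, 32, 34, 35 and 37 had levels of 9.23, 9.71, 9.24, 8.97, 9.37 and 9.88. The 12 susceptible mice ran from 8.59 over a median of 9.25 to 9.47, so 3 of them lay below every resistant mouse and 0 above. For Hes1 the same resistant mice had levels of 9.38, 9.27, 9.08, 8.93, 9.10 and 9.06. The susceptible mice ran from 8.41 over a median of 9.03 to 9.31, and 5 of 12 lay below every resistant mouse, but the difference of -0.17 had an exact permutation p of 0.200 (two-sided). For Hey1 the resistant mice had levels of 6.11, 5.95, 6.83, 6.46, 6.36 and 6.00, against 5.65, 6.36 and 7.13 as the lowest, median and highest susceptible mouse. The groups overlapped for every member.

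In the order of class means, Notch1 had 9.61 ± 0.36 in susceptible, 9.64 ± 0.31 in intermediate and 9.77 ± 0.29 in resistant mice, and Notch2 had 9.18 ± 0.27, 9.35 ± 0.22 and 9.40 ± 0.34 (SD, n = 12, 19 and 6). Hey1 had a different order, with 6.05 ± 0.20 in intermediate mice as the lowest, then 6.28 ± 0.33 in resistant and 6.37 ± 0.35 in susceptible mice. None of these neighbors in order differed past the threshold. Susceptible against intermediate mice gave 0 members, with 0.00928% of all probesets passing, and resistant against intermediate mice gave 0, with 0.779% of all passing. The closest were Hey1 at 0.32 (SE 0.10, adjusted p 0.185) and Jag1 1421105_at at -0.36 (SE 0.12, adjusted p 0.189), both susceptible minus intermediate.

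Papilloma number was also used as a scale over all 37 mice, as the log2 of the count at 20 weeks plus 1. Again 0 of 13 members passed, with 0.00464% of all probesets passing, and 4 had an unadjusted p under 0.05, as had 10.9% of all probesets. The 4 were Jag1 1421105_at at -0.12 per doubling (SE 0.044), Jag1 1421106_at at -0.13 (SE 0.056), Notch2 at -0.07 (SE 0.034) and Hes1 at -0.07 (SE 0.031), with adjusted p from 0.286 to 0.439. All 4 slopes were negative, and none passed.

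Coat color and sex gave no call either. Agouti against white mice, with sex as covariate, gave 0 of 13 members with 0.0742% of all probesets passing and 0 members with an unadjusted p under 0.05. Female against male mice by their labels, the 6 doubtful ones included, gave 0 of 13 with 0.0649% passing. At an unadjusted p under 0.05, reached by 15.9% of all probesets, both Notch1 and both Jag2 probesets had lower means in females. Notch1 1418634_at had 9.54 ± 0.35 in 21 females and 9.79 ± 0.23 in 16 males (SD), and 9.52 ± 0.35 in 19 females and 9.82 ± 0.24 in 12 males without the doubtful mice, where again 0 members passed. The smallest adjusted p among them was 0.218. The slope on the spinous keratins did not differ between the sexes for any member, where 0% of all probesets passed and 0 members had an unadjusted p under 0.05.

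The spinous keratins were used as a measure of differentiation, as the mean log2 level of Krt1 and Krt10 per mouse. Only Hey1 of the 8 genes passed the test against it. Hey1 was lower in mice with more spinous keratin, by 0.17 per log2 unit (SE 0.046, adjusted p 0.0170, n = 37). Over all tested probesets 10.1% passed, of them 4.10% in this direction. Pearson's r was -0.525 and Spearman's rho -0.368 (permutation p 0.00229 and 0.0260), one of 26 relations of members to keratins that were computed. The measure was lowest in the resistant mice 32, at 9.36, and 34, at 11.27, where Hey1 stood at 6.83 and 6.46. Without these 2 mice r was -0.414 and the adjusted p 0.0387. Within the start cohorts with at least 6 mice, r was -0.733 (6 mice), -0.734 (8 mice) and 0.130 (9 mice), so the relation did not hold in the last. The cohorts differed in range, since that of 8 held mouse 32. That of 9 held no resistant mouse, and its keratin means ran only from 13.13 to 14.38. With the endothelial, mural and fibroblast marker means as covariates the slope of Hey1 was -0.0033 (adjusted p 0.983), and the call was lost in 7 of 16 alternatives.

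The other members did not follow the spinous keratins past the threshold. Jag1 1421106_at had r = 0.361 (rho 0.262, adjusted p 0.116) and Dll1 had r = -0.369 (rho -0.327, adjusted p 0.126). The receptors had positive slopes that did not pass. The median slope over the 13 probesets was 0.057 log2 per log2 unit of keratin, against 0.004 over all tested probesets.

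The basal keratins, the mean of Krt5 and Krt14, went with many more of the members. Of the 13 probesets 10 passed, 9 of them upward: both of Notch1, all 3 of Jag1, both of Jag2, and those of Notch2 and Hes1. Hey1 passed downward. The background was high here, since 27.9% of all tested probesets passed, 16.3% upward and 11.6% downward. The slopes were 1.00 (SE 0.15) for Notch1 1418633_at, 0.87 for Notch1 1418634_at and 0.65 for Notch2 per log2 unit of basal keratin. Those of the ligands were 1.57 (SE 0.26), 1.25 and 0.56 for Jag1 and 0.47 and 0.48 for Jag2, and those of the targets were 0.64 for Hes1 and -0.70 (SE 0.22) for Hey1. Both Notch3 probesets had slopes of 0.57 and 0.59 with adjusted p 0.0568 and 0.0551, and Dll1 had an adjusted p of 0.965. The median slope was 0.59, against 0.056 over all tested probesets.

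These relations leaned on a few mice at the low end of a narrow scale. The basal keratin mean lay at 13.38 in mouse 36 and 13.80 in mouse 31, both susceptible, against a median of 14.28. In mouse 36 Notch1 1418633_at stood at 6.60 and Jag1 1421106_at at 5.98, the lowest of all mice for both. Without those mice 4 members passed and 3.53% of all probesets did, namely Notch1 1418633_at, Jag1 1421106_at and 1421105_at, and now Notch3 1421965_s_at. Pearson's r for Notch1 1418633_at was 0.747 (rho 0.395, permutation p 2e-05 and 0.0170) and was 0.515 without them. For Jag1 1421105_at r was 0.705 (rho 0.527, permutation p 1e-05, the smallest the permutations can give, and 0.000900) and then 0.503. For Notch2 r was 0.503 (rho 0.367) and then 0.266. For Hes1 r was 0.533 (rho 0.180) and then 0.165, and for Hey1 -0.474 (rho -0.205) and then -0.164, so the relations of Notch2 and of both targets rested on these 2 mice. Notch1 1418634_at (r = 0.374 without them), Jag1 1434070_at (0.443) and both Jag2 probesets (0.384 and 0.446) also no longer passed. Within the start cohorts of 6, 8 and 9 mice, r for Notch1 1418633_at was 0.890, 0.842 and 0.613, that for Jag1 1421105_at was 0.316, 0.900 and 0.182, and that for Hey1 was -0.895, -0.773 and 0.712. Hey1 thus had the opposite sign in the last cohort. Mouse 31 was in the cohort of 6 mice and mouse 36 in that of 8. Only the cohort of 9 was therefore free of both.

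Mouse 31 also had the highest T-cell marker mean of all mice, 7.27 against a median of 5.78, and mouse 36 the highest striated muscle mean of the susceptible class, 8.60 against 6.31. The part of these cells in the relations was not tested. The highest value on any array was 14.81, so Krt5 and Krt14 lay near the top of the scale, where differences can be compressed.

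**Figure D2:**
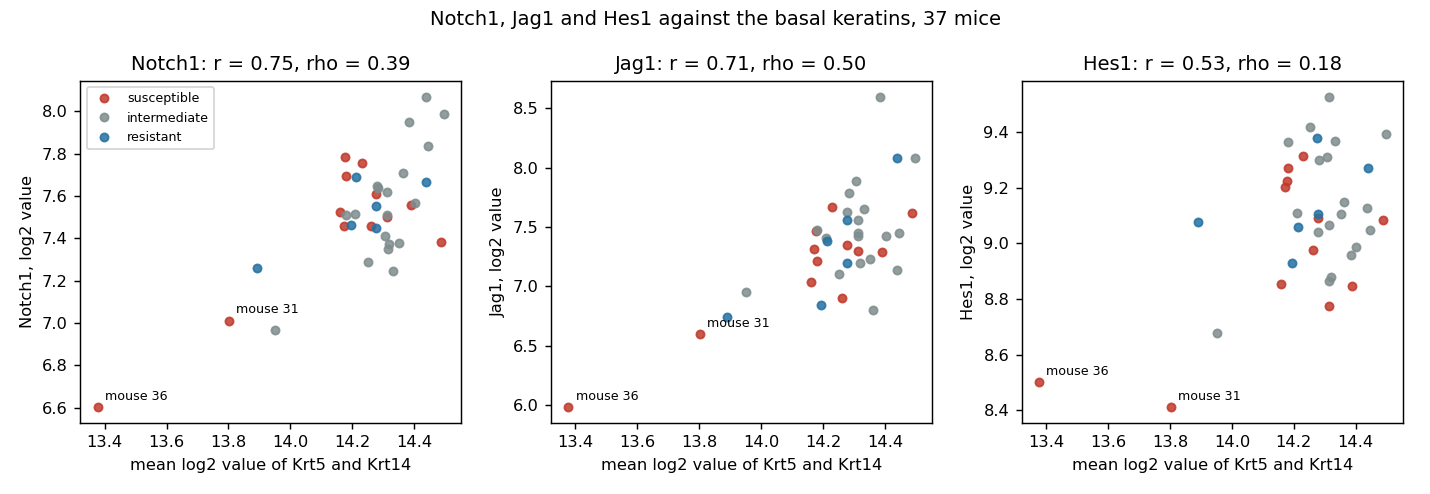
Notch1 (1418633_at), Jag1 (1421106_at) and Hes1 (1418102_at) on the log2 scale (y axes) against the mean log2 level of Krt5 and Krt14 (x axis) in 37 mice, colored by class. Mice 31 and 36 sit at the low end, and the Hes1 relation (r = 0.533) drops to 0.165 without them.

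Markers of other cell types were then set against the members, since a papilloma holds vessels, stroma and immune cells besides keratinocytes. Hey1 was higher in mice with more endothelial RNA, by 0.54 per log2 unit of the mean of 10 endothelial genes (SE 0.094, adjusted p 4.52e-05, n = 37). Dll1 also rose, by 0.21 (SE 0.078, adjusted p 0.0378), and Notch2 fell by 0.29 (SE 0.10, adjusted p 0.0272). The remaining members did not pass. Of all tested probesets 30.9% passed, 17.6% upward, and 91 relations of members to marker lists were computed. All 10 endothelial genes were detected, 9 of them in all 68 arrays.

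The mice at both ends show the relation of Hey1. Mouse 12 had the lowest endothelial mean, 6.66, and the lowest Hey1, 5.65. Mouse 31 had an endothelial mean of 8.09 and the highest Hey1, 7.13. The resistant mice 34 and 35 had the highest endothelial means, 8.30 and 8.18, with Hey1 at 6.46 and 6.36, below that of mouse 31.

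For Hey1 r was 0.702 and rho 0.700 (permutation p 1e-05 and 2e-05), and r was 0.761 without mice 34 and 35. Within the cohorts of 6, 8 and 9 mice it was 0.900, 0.711 and 0.250. All 10 genes of the list went up with Hey1, with r from 0.496 to 0.668. For Dll1 r was 0.423 and rho 0.440 (permutation p 0.00914 and 0.00726), and r was 0.470 without the same mice. Within the cohorts it was 0.329, 0.731 and 0.437. All 10 genes also went up with Dll1, with r from 0.182 to 0.596. For Notch2 r was -0.435 and rho -0.343 (permutation p 0.00728 and 0.0385), with -0.455 without those mice and -0.901, -0.387 and 0.148 within the cohorts. The call of Hey1 held in 7 of 7 alternatives, while those of Dll1 and Notch2 were each lost in 3 of 7, all chosen after the data were seen.

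The endothelial mean itself moved with other measures. It was 7.38 ± 0.39 in susceptible, 7.07 ± 0.23 in intermediate and 7.63 ± 0.54 in resistant mice, and over the 37 mice it had r = -0.581 with the spinous keratins and 0.814 with the mural markers of smooth muscle and pericytes. Against the mural mean, where 29.7% of all probesets passed, Hey1 rose by 0.39 per log2 unit (SE 0.11, adjusted p 0.0105). Jag1 fell, 1421106_at by 0.54 (SE 0.17, adjusted p 0.0151) and 1421105_at by 0.44 (SE 0.14, adjusted p 0.0155), while 1434070_at did not pass. Which of these cells carried the Hey1 RNA was not tested.

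The markers of immune cells also went with several members. Against the T-cell mean (5 genes), where 27.3% of all probesets passed, 5 of 13 members passed. Hey1 rose by 0.35 per log2 unit (SE 0.10, adjusted p 0.0113), and both Notch1 probesets, Notch2 and Hes1 fell by 0.27 to 0.35 (adjusted p 0.0156 to 0.0196). The T-cell genes did not all agree. Cd8a went the other way, with r = -0.151 for Hey1, 0.158 for Notch1 1418634_at, 0.314 for Notch2 and 0.024 for Hes1. The other 4 kept the sign of the mean, though Cd2 was above the array median in only 13 of 68 arrays. Mice 31 and 36 were again the 2 farthest from the median, and without them r went from 0.491 (rho 0.325) to 0.148 for Hey1, from -0.477 (rho -0.225) to -0.115 for Hes1 and from -0.476 (rho -0.338) to -0.179 for Notch2. For Notch1 it went from -0.465 (rho -0.261) to -0.124 on 1418634_at and from -0.461 (rho -0.349) to -0.149 on 1418633_at, so these relations rested on those mice. Within the cohorts of 6, 8 and 9 mice r for Hey1 was 0.860, 0.228 and 0.270, where the first held mouse 31 and the second mouse 36.

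Against the macrophage mean (6 genes), where 27.9% passed, 5 of 13 members passed, all downward and all receptors. Notch1 fell by 0.18 (SE 0.060, adjusted p 0.0248) on 1418634_at and by 0.15 (SE 0.053, adjusted p 0.0324) on 1418633_at, both Notch3 probesets by 0.16 (adjusted p 0.0335 and 0.0397) and Notch2 by 0.13 (adjusted p 0.0493). For Notch1 1418634_at r was -0.440 and rho -0.388, and r was -0.474 without mice 8 and 1. Within the cohorts of 6, 8 and 9 mice it was -0.578, -0.244 and -0.232. For Notch3 1421965_s_at r was -0.422 and rho -0.385, then -0.414 without those mice, and -0.816, -0.269 and -0.206 within the cohorts. The striated muscle mean gave 1 member, Notch1 1418633_at, which fell by 0.093 (adjusted p 0.0305), with 28.1% of all passing. The fibroblast mean gave 0 with 26.8% passing, and the keratins of the inner root sheath gave 0 with 0.408% passing, where 1 and 0 members had an unadjusted p under 0.05. How far these cell types account for the levels of the members was not tested.

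**Figure D3:**
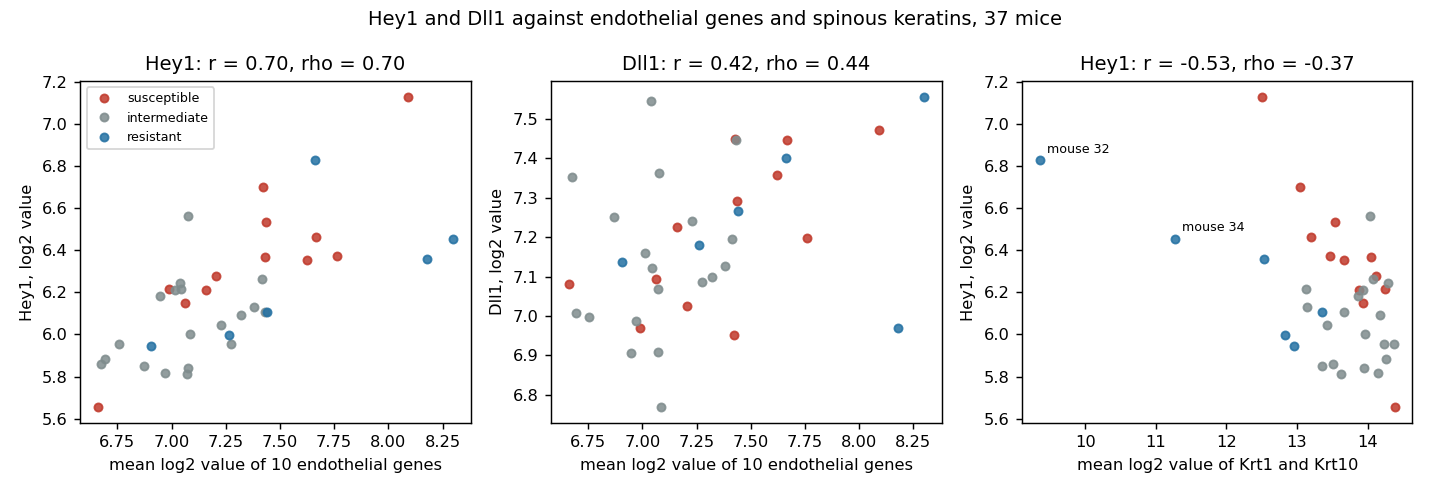
Hey1 and Dll1 on the log2 scale (y axes) in 37 mice, colored by class, against cell-type measures on the x axes in log2 units. Hey1 rises with the mean of 10 endothelial markers (r = 0.702) and is lower where the spinous keratins are higher (r = -0.525).

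**Figure D4:**
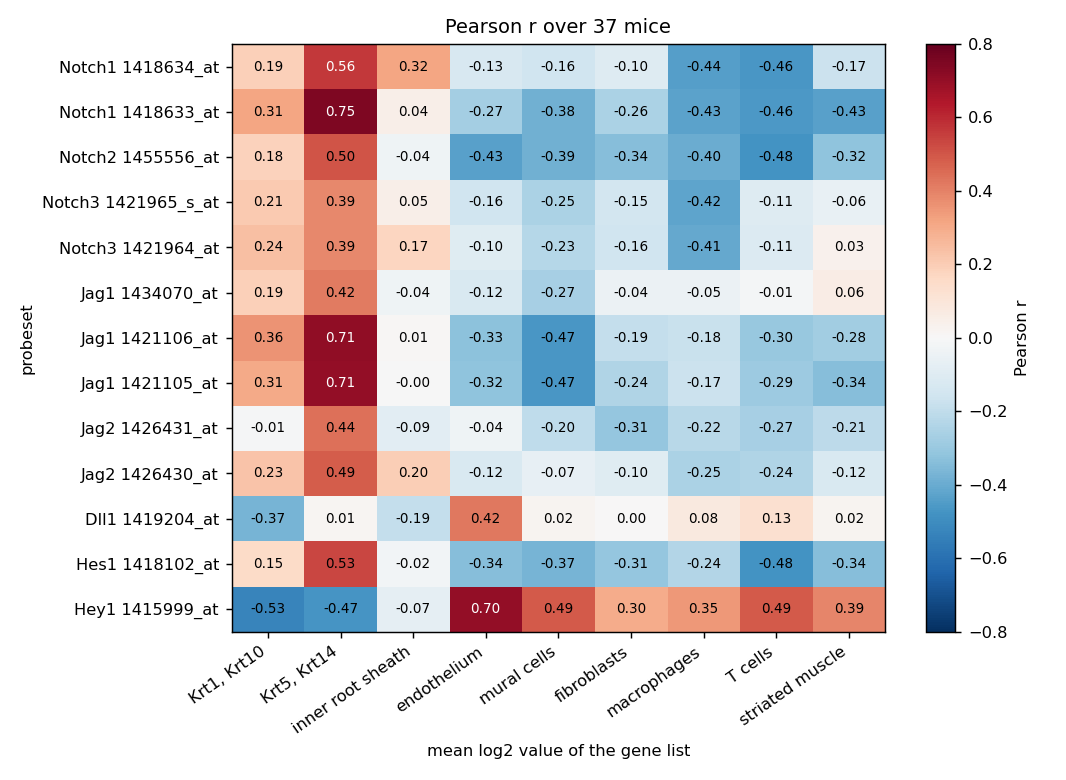
Pearson's r over 37 mice between each Notch gene and each keratin or cell-type marker mean, as a color scale from negative to positive. The Hey1 row has the opposite sign to most of the other genes for the spinous keratin, basal keratin and endothelial columns, and Dll1 resembles Hey1 for the endothelial column.

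Between the genes themselves, 28 pairs were compared over the 37 mice, of which 20 had a positive and 8 a negative r (median 0.321). Of all tested probesets, between 0.00464% (Dll1) and 17.7% (Hey1) passed against a single gene of the 8. In 4 pairs each gene passed the test against the other. The receptors Notch1 and Notch3 had the highest r of these, 0.664 (rho 0.635, permutation p 1e-05 and 5e-05, larger adjusted p 0.00233), and 0.580 without the 2 mice farthest in Notch1, 31 and 14. Within the cohorts of 6, 8 and 9 mice r was 0.644, 0.326 and 0.757. Notch1 and Notch2 had r = 0.513 (rho 0.346) and 0.398 (rho 0.290) without the same mice, and Notch1 and Jag1 had 0.612 (rho 0.434) and then 0.434 (rho 0.332). In the same cohorts r was 0.798, 0.562 and 0.170 for Notch1 with Notch2. For Notch1 with Jag1 it was 0.682, 0.133 and 0.821. Notch2 and Hey1 had r = -0.486 (rho -0.296), which was -0.275 without mice 31 and 2 and 0.491 in the cohort of 9 mice, so it did not hold there. Hes1 and Hey1, both targets, had r = -0.423 (rho -0.262, larger adjusted p 0.0849), which was -0.107 without mice 31 and 36. Dll1 and Hey1 had r = 0.455 (rho 0.445, larger adjusted p 0.849).

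The share of all probesets that passed against each gene, itself included, differed widely: 6.44% for Notch1, 13.7% for Notch2, 5.63% for Notch3, 0.107% for Jag1, 0.635% for Jag2, 0.00464% for Dll1, 4.37% for Hes1 and 17.7% for Hey1. For Dll1 that was its own probeset alone. The genes most alike in pattern, by Pearson's r over the 37 mice, were Celsr2 (0.815) for Notch1, Htt (0.762) for Notch2, Eps15l1 (0.774) for Notch3, Xdh (0.694) for Jag1 and C77080 (0.736) for Jag2. For Dll1 they were Flt1 (0.630), a VEGF receptor that is also on the endothelial list, and Tada2b (0.574) and Nrg1 (0.565), which are not on it. For Hes1 it was Ccnd1 (0.776), which encodes cyclin D1. For Hey1 they were Tal1 (0.823), Adgrl4 (0.785) and Rasgrp3 (0.762), of which Tal1 is a transcription factor of blood and endothelial cells.

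Papillomas of 1 mouse were compared to ask how much of the spread in signal belongs to the mouse. The authors of the data point out that sequence variants of a parental strain can disturb binding to the probes. The probes of the members were not checked for such variants, so signal and RNA level cannot be told apart here. The intraclass correlation, the share of variance that lies between mice, was past the threshold for 11 of 13 member probesets over 31 pairs (F test, Benjamini-Hochberg over all tested probesets), where 71.0% of all probesets passed. The median was 0.401 for the members and 0.435 for all tested probesets. The highest values were those of Jag1 on 1421105_at, 0.669, and 1421106_at, 0.664, while its 1434070_at had 0.451. Notch2 had 0.605, Notch3 with 0.483 and 0.467, Jag2 with 0.401 and 0.331, Hey1 with 0.366 and Hes1 with 0.343. Notch1 passed on 1418633_at at 0.343 and not on 1418634_at, at 0.299 (adjusted p 0.0625).

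For Jag1 1421105_at the papillomas of mouse 15 stood at 7.88 and 7.83, and those of mouse 32 at 6.41 and 6.81. These were the highest and the lowest pair. For Hey1 both papillomas of mouse 12 were low, at 5.65 and 5.66, while those of mouse 32 stood at 7.35 and 6.31, the widest pair. Dll1 had an intraclass correlation of 0.035 (adjusted p 0.439), and mouse 4 had 6.44 and 7.38. The widest pair of all was Jag2 1426431_at in mouse 14, at 7.89 and 6.63.

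**Figure D5:**
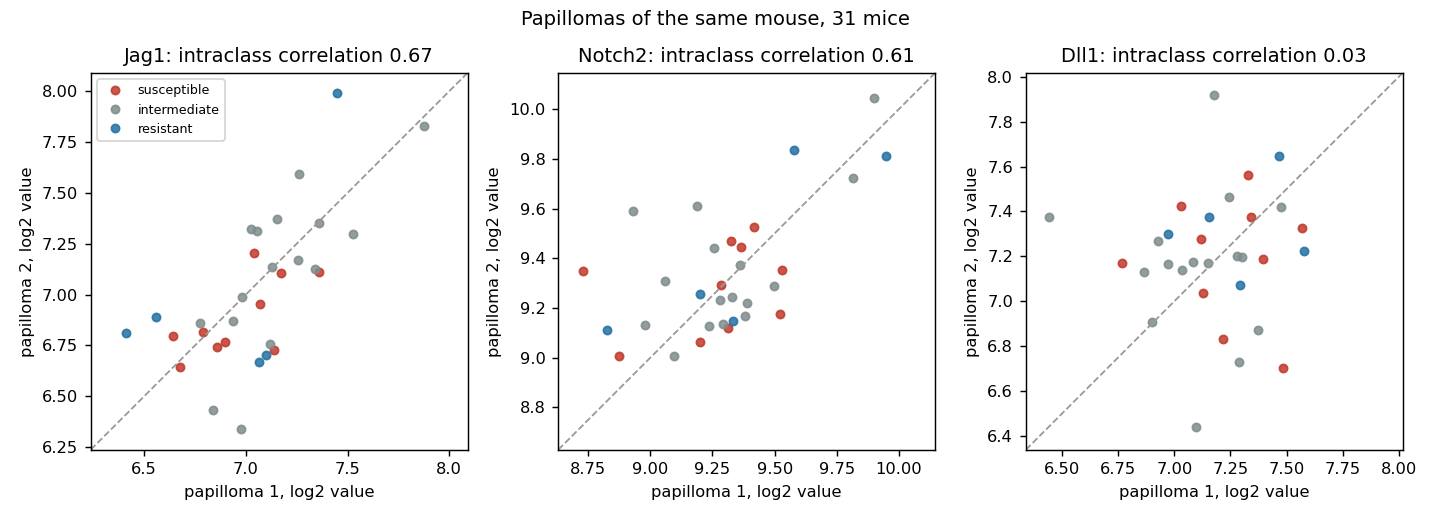
Log2 level in papilloma 1 (x axis) against papilloma 2 (y axis) of the same mouse for Jag1 (1421105_at), Notch2 and Dll1 in 31 mice, colored by class, with the line of equality dashed. Jag1 and Notch2 points follow the line (intraclass correlation 0.669 and 0.605) and Dll1 points scatter around it (0.035).

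The rest of the pathway was read from a list of 57 genes, of which 53 were on the array and 46, with 80 probesets, were tested. By class, papilloma number, coat and sex 0 of the 80 passed. Between resistant and intermediate mice 1 of the 80 passed, where 0.779% of all probesets did. It was Notch4, a receptor of endothelial cells, which was higher in resistant mice by 0.79 (SE 0.18, adjusted p 0.0294). The endothelial marker mean was also higher there, 7.63 ± 0.54 against 7.07 ± 0.23, and its part in the difference was not tested. Against the spinous keratins 6 of the 80 passed, a lower share than the 10.1% of all tested probesets. Nrarp, a target that feeds back on the pathway, rose by 0.19 per log2 unit and Numb, an inhibitor, by 0.14. Notch4 fell by 0.35, the sugar transferase Lfng by 0.20, the endothelial ligand Dll4 by 0.14 and the coactivator Ep300 by 0.13.

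Against the basal keratins 24 of the 80 passed, 19 upward and 5 downward, near the 27.9% of all tested probesets. The upward ones were led by the proteases that cut the receptors, Adam10 at 1.59 (SE 0.28), Adam17 at 1.52 and the gamma-secretase subunit Ncstn at 1.18, with the coregulator Snw1 at 1.19. The downward ones were led by Mfng, a sugar transferase, at -1.22, the nuclear partner Rbpj at -0.97, Notch4 at -0.95 and Lfng at -0.93. Far fewer of all probesets passed without mice 31 and 36 (above). Values of these pathway genes without them are not given, so how far the slopes lean on those mice cannot be read here. Against the endothelial markers 29 passed, 17 upward and 12 downward, where 30.9% of all passed. Notch4 rose by 1.04 (SE 0.11, adjusted p 3.63e-09), Lfng by 0.74, Rbpj by 0.65, Mfng by 0.58, Heyl by 0.54 and Dll4 by 0.48. Aph1a, a gamma-secretase subunit, fell by 0.68, Snw1 by 0.64, the ubiquitin ligase Itch by 0.64 and the corepressor Tle3 by 0.51. Apart from Heyl and Dll4, each gene is given here by its passing probeset of largest effect. Among the proteases 3 genes passed, 3 with a falling probeset and 1 of them also with a rising probeset. Within mice 55 of the 80 passed, close to the 71.0% of all, and the median intraclass correlation was 0.432, against 0.435 for all tested probesets.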

How the data were processed

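RNA of each papilloma (Trizol, then Qiagen RNeasy) was hybridized to an Affymetrix mouse expression array. The deposited log2 values were summarized by the authors with RMA, which the submitters' processing notes name without a version. Its quantile step evens out differences between whole arrays. Probesets with 1 gene symbol above their own array's median in at least 11 of 68 arrays were tested (21561 probesets of 12596 genes). Papillomas of 1 mouse were averaged, and p-values measure the spread between mice. Class, papilloma number, keratin and marker means were tested with limma 3.58.1 in R 4.3.3 at an adjusted p of 0.05, correlations by 100000 permutations (exact enumeration within cohorts), in Python 3.11.15 with scipy 1.17.1. The number of arrays limits the precision. Methods were tested on simulated data. Named are all members, the 3 genes most alike in pattern to each, of which the first is given for most, and up to 4 pathway genes per direction and comparison, and Dll4 and Heyl were added after their values were seen. Alternatives covered the filter, the scaling, the blocks, covariates, ranks and leaving out mice. Members and lists were chosen with earlier results of these data known, and the tests of single members against marker lists, the endothelial alternatives and those without mouse 14 were added after seeing the data.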

Additional observations from a re-analysis of the deposited data

How the results depend on the processing

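The count of 0 members by class held under every alternative that was run, and leaving out each of the 18 mice in turn gave 0 members each time. In the main class test only 0.0510% of all probesets passed, and the shares under the alternatives are not given. A count of 0 of 13 therefore does not set the members apart from other probesets. No member that passed a test changed its direction under these alternatives, though in the start cohort of 9 mice Hey1 did against both keratin means and against Notch2, and Notch2 against the endothelial mean. Against the spinous keratins the count of 1 member, Hey1, became 0 without the mice of doubtful sex label (382 of all probesets called, against 2167), with sex and start cohort as covariates (440), with Krt2 and Krt77 added to the keratins (1171), with cornified layer genes in their place (1323), with stromal marker means (673) or basal keratins (749) as covariates, and on ranks (6805). It became 3 with the Actb ratio as covariate (3434) and 2 without mice 32 and 34 (7315). Against the basal keratins 10 members became 2 on ranks (1980 of all, against 6009), both of Jag1, and 4 without mice 31 and 36 (762), and 8 without mouse 14. The endothelial count of 3 became 1, Hey1, with sex and start cohort (3543 of all, against 6661) or with the spinous keratins as covariates (4110). The 4 gene pairs became 2 with sex and start cohort and 2 with the stromal means as covariates, and the 11 members alike within a mouse became 7 with the Actb ratio removed and 10 without mouse 14. For the counts without mouse 14, the gene pairs and the members alike within a mouse, the change over all probesets is not given. Whether those changes are particular to the members cannot be read from them. The cause of each change was not tested. Hey1 passed against the endothelial markers in 7 of 7 alternatives, and Jag1 1421105_at and 1421106_at against the basal keratins in 12 of 12. No paired analysis was possible because the replicate numbers in the labels count papillomas within a mouse and do not pair mice of different classes. Hey1 had the lowest mean of the 13 tested member probesets, 6.19, against array medians of 5.19 to 5.29, and the Notch2 probeset at 4.52 lay below them.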
